A study of Mus musculus with 64 samples.

Results

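The genes described here encode subunits of respiratory complex I and were taken by symbol, as protein-coding mouse genes named Nduf followed by a, b, c, s or v and a digit. The pattern found 41 genes in the annotation, of which 37 were protein-coding, out of 52636 genes in the count table. All 37 passed the filter on low counts. Total RNA of male mice had been sequenced from 2 fat depots, the brown adipose tissue (BAT) and the white depot around the epididymis (eWAT), at zeitgeber time (ZT) 6, 10, 18 and 22, in 4 samples for each of 16 groups, 64 samples in all. FANKO mice carried the NamptTM1Jtree allele, in which an exon of *Nampt* is flanked by loxP sites, and Adiponectin-Cre, so that *Nampt* is deleted in adipocytes and not in the other cells of the depots. The controls, called WT, were littermates without Cre. Both groups were fed chow, with lights on from ZT 0, 6 am, to 6 pm. The labels give no age, and tissues of these lines were otherwise taken at 2 to 4 months.

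Complex I is the entry point of the mitochondrial respiratory chain. Its hydrophilic arm, which reaches into the matrix, takes electrons from NADH and passes them along iron-sulfur clusters to ubiquinone, and its membrane arm pumps protons. The core subunits of the hydrophilic arm are nuclear genes, those of the membrane arm are encoded by the mitochondrial genome, and the remaining accessory subunits are nuclear. Brown adipocytes are rich in mitochondria, where respiration drives heat production through UCP1. NAMPT is the rate-limiting enzyme of the salvage pathway that makes NAD+, whose reduced form is the substrate of complex I.

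By role, the 37 genes held the 7 nuclear core subunits, among them *Ndufv1*, *Ndufv2*, *Ndufs1*, *Ndufs3*, *Ndufs7* and *Ndufs8*, and 9 accessory subunits of the hydrophilic arm (*Ndufa2*, *Ndufa5*, *Ndufa6*, *Ndufa7*, *Ndufa9*, *Ndufa12*, *Ndufs4*, *Ndufs6* and *Ndufv3*). A further 19 were accessory subunits of the membrane arm (*Ndufa1*, *Ndufa3*, *Ndufa8*, *Ndufa10*, *Ndufa11*, *Ndufa13*, *Ndufb2* to *Ndufb11*, *Ndufc1*, *Ndufc2* and *Ndufs5*). The other 2, *Ndufa4* and *Ndufa4l2*, match the pattern but are known as a subunit of complex IV and its paralog. The 4 genes left out were 3 processed pseudogenes with 61 to 78 counts over all samples and *Ndufb1-ps*, which the annotation types as a long noncoding RNA and which had 93081 counts. Exons of some members overlap those of other genes, so that reads there may be shared. On the opposite strand, *Ndufs1* shares 498 bases with *Ino80dos* and *Eef1b2*, *Ndufb5* 616 with *Mrpl47*, *Ndufa13* 375 with *Tssk6* and *Ndufs3* 88 with *Kbtbd4*. On the same strand, *Ndufb2* shares 145 bases with *Gm42420* and *Ndufb8* 134 with *Gm20538*, and *Ndufb9* overlaps *Gm49356*.

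RefSeq promoters on GRCm38.p6, each 300 bases long, were at hand for 32 of the 37 genes (34 promoters). The promoters of 3 core subunits are shown, because *Ndufv1* and *Ndufs8* differed most between BAT and eWAT of WT mice and *Ndufs7* is the core subunit that holds the sequence that was most frequent among these genes relative to all promoters. Capitals mark the matched letters. They are written 5′ to 3′ on the strand of the gene, *Ndufs7* at chr10:80249199-80249498 on the plus strand, *Ndufs8* at chr19:3912725-3913024 and *Ndufv1* at chr19:4012706-4013005, both on the minus strand.
Ndufs7: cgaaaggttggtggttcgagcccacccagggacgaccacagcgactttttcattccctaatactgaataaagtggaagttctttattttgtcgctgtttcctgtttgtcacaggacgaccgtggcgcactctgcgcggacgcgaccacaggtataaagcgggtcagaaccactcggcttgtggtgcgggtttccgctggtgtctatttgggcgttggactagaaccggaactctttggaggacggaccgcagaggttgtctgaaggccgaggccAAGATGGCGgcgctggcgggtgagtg
Ndufs8: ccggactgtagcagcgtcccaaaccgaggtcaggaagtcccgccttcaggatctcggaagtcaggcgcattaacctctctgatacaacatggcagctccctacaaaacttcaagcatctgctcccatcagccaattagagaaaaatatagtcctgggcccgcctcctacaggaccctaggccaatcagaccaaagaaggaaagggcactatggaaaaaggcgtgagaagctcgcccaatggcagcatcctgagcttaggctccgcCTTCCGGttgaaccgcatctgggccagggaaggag
Ndufv1: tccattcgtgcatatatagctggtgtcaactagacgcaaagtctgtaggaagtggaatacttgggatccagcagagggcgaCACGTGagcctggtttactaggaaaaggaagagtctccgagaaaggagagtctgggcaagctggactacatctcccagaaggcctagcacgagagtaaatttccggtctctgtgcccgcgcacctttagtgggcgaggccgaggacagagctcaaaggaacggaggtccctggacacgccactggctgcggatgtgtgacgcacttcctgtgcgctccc

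The capitals in *Ndufs7* are the YY1 sequence AAGATGGCG, those in *Ndufs8* the reverse complement of the ETS (GABPA) sequence CCGGAAG, and those in *Ndufv1* the E-box CACGTG. Exact matches were sought on both strands. The YY1 sequence stood in 5 of the 34 promoters (14.7%), those of *Ndufa9*, *Ndufc1*, *Ndufs4*, *Ndufs6* and *Ndufs7*, and in 1.4% of all 32851 promoters. The NRF1 sequence GCGCATGCG stood in 5.88% (*Ndufa8* and *Ndufa11*) and in 1.75% of all. For the ETS sequence the shares were 11.8% and 8.86%, for the ERR sequence AAGGTCA 8.82% and 4.72%, and for the E-box 8.82% and 7.15%. The E-box is known to be bound by clock factors. None of these strings contains another, and a match describes letters only.

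Total counts ranged from 6117343 to 30544847 per sample. The share of all counts that fell on the 37 genes had a median of 1.02% for WT and 0.53% for FANKO BAT, against 0.279% for WT and 0.38% for FANKO eWAT. Genes of the mitochondrial genome took medians of 24.6% and 14.7% of the counts in WT and FANKO BAT and 6.55% and 10.7% in eWAT. Levels are given as CPM, counts relative to the library total after TMM scaling, which takes most genes as unchanged. *Nampt* itself ran from 478 to 1453 CPM in WT BAT and from 108 to 186 in FANKO BAT, with no overlap. In eWAT it ran from 111 to 309 in WT and from 101 to 131 in FANKO mice, so these groups overlapped (log2 fold change -0.50, SE 0.07, adjusted p = 4.67e-09, edgeR). In BAT, 7 libraries held skeletal muscle markers above a summed 200 CPM, and in WT eWAT 3 libraries correlated least with their groups. The numbers of the 37 genes called for mean level or rhythm were the same without either set, except in FANKO mice between depots. Summed skeletal muscle markers overlapped between the genotypes in BAT, at 1.37 to 529 CPM in WT (median 40.6) and 3.84 to 457 in FANKO mice (median 5.93), so that the WT median was 6.84 times as high. Epididymis markers in eWAT had medians of 6.07 CPM in WT and 4.51 in FANKO mice. Brown adipocyte markers summed to at least 1411 CPM in every BAT sample and at most 140 in eWAT, where the median of *Zic1* was 0.

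**Figure D1:**
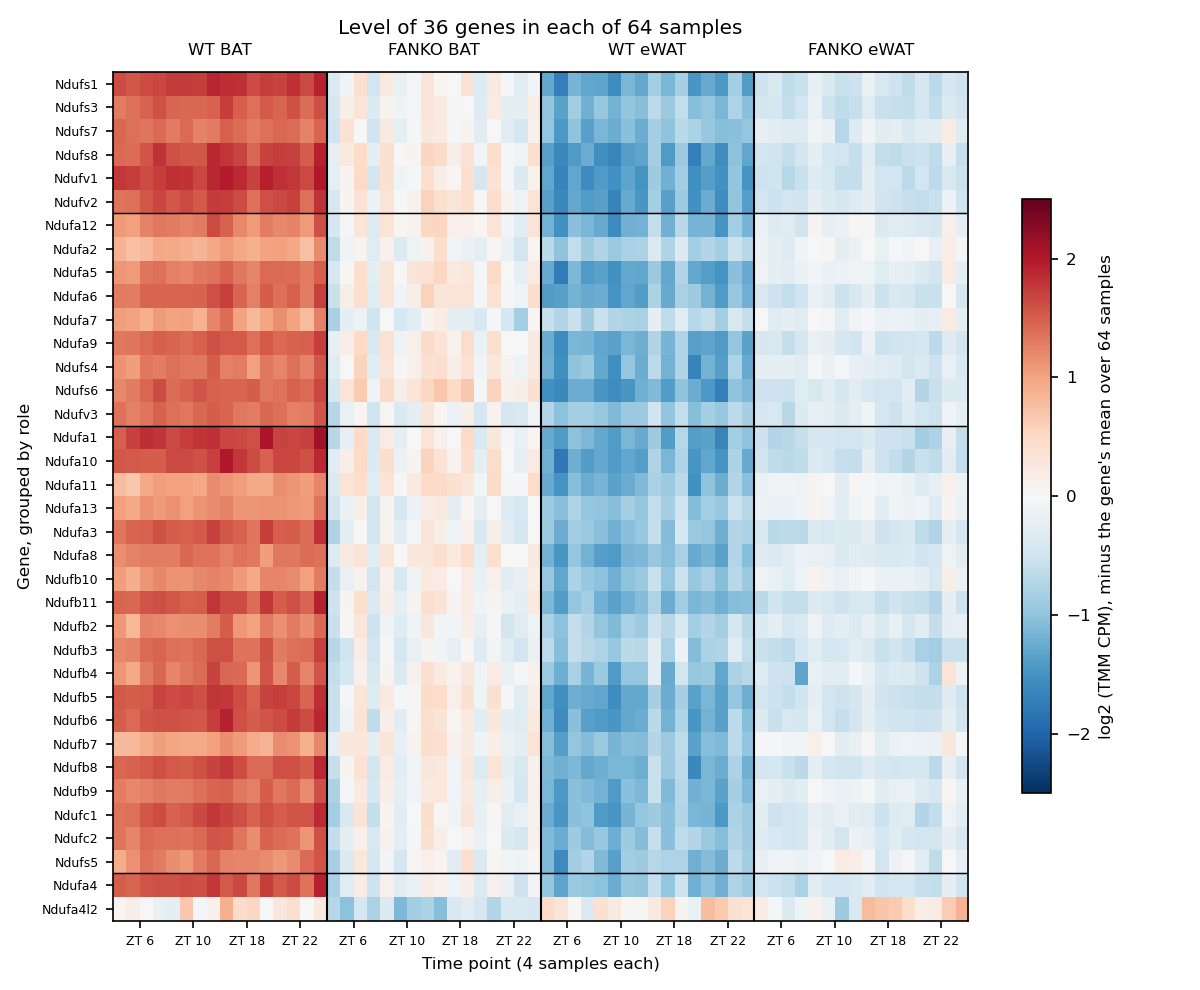
Level of 36 of the 37 genes (vertical axis, grouped by role) in each of the 64 samples (horizontal axis, by group and time point), as log2 TMM CPM minus the mean of the gene over all samples. By group median, all genes shown but *Ndufa4l2* are highest in WT BAT and lowest in WT eWAT.

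The depots of WT mice were compared first, to place the levels. BAT of WT mice held more RNA of 36 of the 37 genes than eWAT, by a median log2 fold change of 2.45, or 5.46 times (1.72 on the log2 scale with library size alone). All 36 differed at a false discovery rate (FDR) below 0.01 in edgeR's quasi-likelihood test, while 32.7% of the 20249 genes tested were higher and 41.1% lower in BAT. All 36 also had every WT BAT sample above every WT eWAT sample, as did 12% of all genes, and 15.1% had every BAT sample below. The core subunits differed by a median of 2.90 on the log2 scale, against 2.43 for the accessory subunits of either arm.

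*Ndufv1*, which binds NADH and FMN at the tip of the hydrophilic arm, ran from 1005 to 1305 CPM (median 1121) in WT BAT and from 102 to 178 (median 124) in WT eWAT. Its log2 fold change of 3.12 (SE 0.08, adjusted p = 1.13e-40, edgeR) was the highest of the 37 genes. *Ndufs8*, an iron-sulfur subunit near the ubiquinone site, ran from 241 to 351 CPM (median 288) in WT BAT and from 27.9 to 50.9 (median 35.5) in WT eWAT, a log2 difference of 2.98 (SE 0.08, adjusted p = 5.41e-40, edgeR). The smallest difference among the 36 genes was that of *Ndufa2*, an accessory subunit of the hydrophilic arm, at 1.65 on the log2 scale (SE 0.06). *Ndufa4l2* was at 3.11 to 6.75 CPM in WT BAT and 2.85 to 6.19 in WT eWAT and did not pass the test (log2 -0.04, SE 0.10, adjusted p = 0.713, edgeR).

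Per kilobase of the principal transcript, the levels in WT BAT spanned a wide range. *Ndufa4* was highest at a median of 1484 CPM per kb, followed by *Ndufb8* at 1213 and *Ndufb9* at 968, both accessory subunits of the membrane arm. The sample ranges of *Ndufa4* (1226 to 1876) and *Ndufb8* (1090 to 1508) overlapped. The median over the 37 genes was 320.5 CPM per kb in WT and 126 in FANKO BAT, and it was 53.2 in WT and 84.1 in FANKO eWAT. *Ndufb2*, at 21.6 per kb in WT BAT, was the lowest complex I subunit, with a principal transcript of 4371 bases, so that its value depends on which transcript is used, and *Ndufa4l2* was lower still at 4.32. *Ndufa4* ranked highest and *Ndufa4l2* lowest in all 4 combinations of depot and genotype.

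FANKO BAT was then compared with WT BAT, to see how these genes stood when adipocytes lacked *Nampt*. All 37 genes were lower in FANKO BAT. The median log2 fold change was -1.40, so that WT BAT was 2.64 times as high, and the range was -1.73 to -0.79. Scaled by library size alone, the median was -0.82. All 37 passed an FDR of 0.01, where 33.9% of all genes tested were lower and 33.1% higher at that threshold. All 37 also had every FANKO sample below every WT sample over the whole day, against 10% of all genes, and 12.5% of all genes had every FANKO sample above.

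Among the core subunits the fall was even, between -1.73 and -1.40 on the log2 scale. *Ndufs1* (chr1:63143596-63176833, minus strand, GRCm38), the large iron-sulfur subunit, ran from 969 to 1252 CPM (median 1092) in WT BAT and from 238 to 433 (median 319) in FANKO BAT. Its log2 fold change was -1.73 (SE 0.07, adjusted p = 6.52e-30, edgeR). *Ndufv1* ran from 236 to 461 CPM in FANKO BAT (median 338), a log2 change of -1.72 (SE 0.08). Both genes were far below WT in every FANKO sample.

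*Ndufs3*, a core subunit of the hydrophilic arm, was at 232 to 311 CPM in WT BAT and 69.2 to 118 in FANKO BAT (log2 -1.48, SE 0.06). *Ndufs8* was at 77.3 to 132 CPM in FANKO BAT (log2 -1.45, SE 0.08) and at 241 or more in WT BAT. *Ndufs7*, which carries the last iron-sulfur cluster before ubiquinone, was at 208 to 249 CPM in WT and 62.9 to 114 in FANKO BAT (log2 -1.41, SE 0.07). *Ndufv2*, the partner of *Ndufv1*, was at 489 to 668 CPM in WT and 146 to 287 in FANKO BAT (log2 -1.40, SE 0.07). None of the core subunits overlapped between the genotypes.

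The accessory subunits spread more widely than the core. *Ndufa1*, a small subunit of the membrane arm needed for assembly, ran from 215 to 326 CPM (median 248) in WT BAT and from 47.3 to 108 (median 75.4) in FANKO BAT, a log2 change of -1.73 (SE 0.08, adjusted p = 7.72e-27, edgeR). The smallest fall was that of *Ndufa11*, a membrane arm subunit, from 103 to 152 CPM in WT BAT (median 132.5) and 50.8 to 91.8 in FANKO BAT (median 80.7), at -0.79 (SE 0.07, adjusted p = 1.45e-15, edgeR). The medians were -1.16 for the 9 accessory subunits of the hydrophilic arm and -1.46 for the 19 of the membrane arm. *Ndufa4* fell by 1.72 on the log2 scale (SE 0.07), close to the core subunits.

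**Figure D2:**
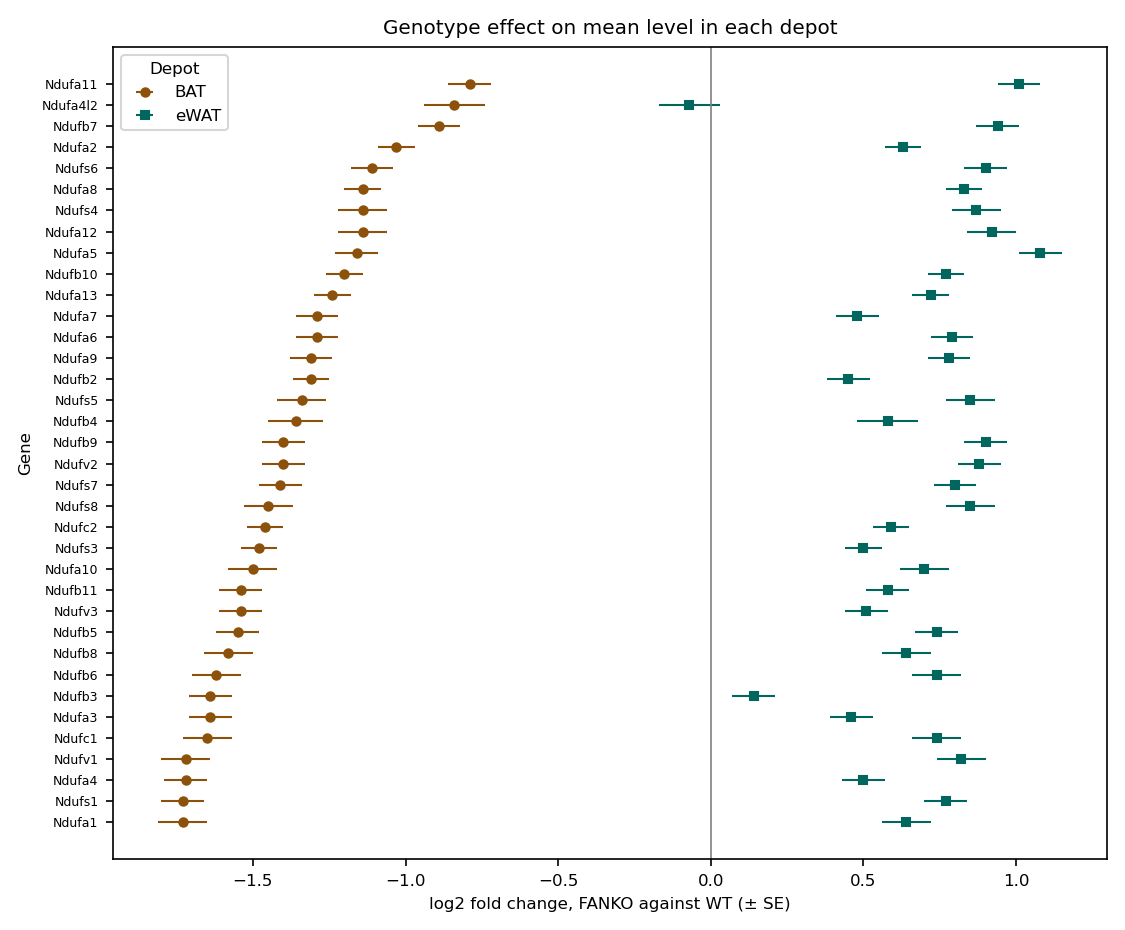
Log2 fold change of mean level in FANKO against WT mice for 36 of the 37 genes (vertical axis), with its standard error, in BAT (circles) and eWAT (squares). All BAT values lie between -1.73 and -0.79, and all eWAT values but that of *Ndufa4l2* lie above 0.

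Markers of other cells moved with genotype in BAT. The summed level of 10 macrophage markers ran from 109 to 209 CPM in WT BAT (median 125) and from 778 to 2059 in FANKO BAT (median 1157), and 8 of the 10 were higher and 2 (*Cd14* and *Cd163*) lower in FANKO mice. Lymphocyte markers (5 of 5 higher) ran from 1.14 to 4.49 CPM in WT and from 16.2 to 68.6 in FANKO BAT, and stromal markers (5 of 5 higher) from 376 to 1138 and from 1187 to 2196. The summed endothelial markers went the other way, with overlap, from 404.5 to 584.5 CPM (median 493) in WT and from 287 to 433 (median 364) in FANKO BAT. Adipocyte markers ran from 12030 to 15890 CPM in WT BAT and from 5507 to 9571 in FANKO BAT, with 7 of 8 lower. Of 9 brown adipocyte markers 6 were lower, while *Zic1*, *Elovl3* and *Dio2* did not pass the test. With the macrophage score of each sample as a covariate, the log2 changes of the 37 genes in BAT had a median of -0.69 and 3 passed (*Ndufa3*, *Ndufb3* and *Ndufc2*). The median of all genes was 0.03 in that model. Standard errors were larger there, at 0.27 for *Ndufs1* against 0.07 without the covariate. The share of all genes that passed was not taken in that model, so the count of 3 has no background beside it. The score did not overlap between the genotypes in BAT, so the parts of macrophages and of genotype cannot be told apart in that model, and in whole tissue fewer adipocytes cannot be told apart from less RNA per adipocyte.

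**Figure D3:**
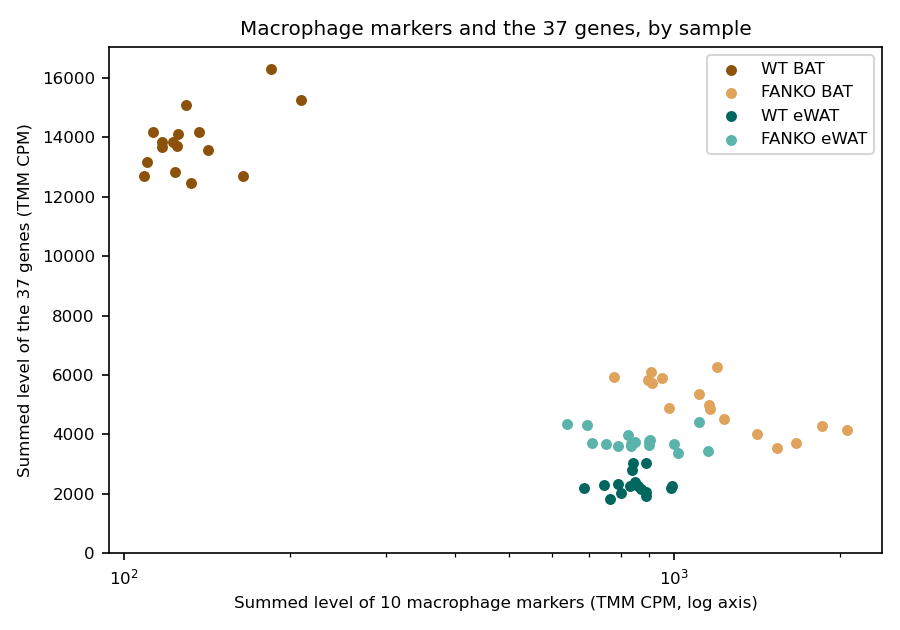
Summed level of the 37 genes (vertical axis, TMM CPM) against the summed level of 10 macrophage markers (horizontal axis, TMM CPM, log scale), with 1 point per sample. WT BAT lies apart, at 109 to 209 CPM of macrophage markers and 12470 to 16310 CPM of the 37 genes, and the eWAT groups overlap in macrophage markers.

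In eWAT the direction was the opposite. In FANKO eWAT 35 of the 37 genes were higher than in WT eWAT, with a median log2 fold change of 0.74, or 1.67 times. All 35 passed an FDR of 0.01, at which 27.6% of all genes tested were higher and 22.8% lower. Over the whole day 25 of the 37 had every FANKO sample above every WT sample, against 4.57% of all genes, and none was below throughout, against 1.33%. The 2 that did not pass were *Ndufb3*, a membrane arm subunit (log2 0.14, SE 0.07, adjusted p = 0.0815, edgeR), and *Ndufa4l2* (log2 -0.07, SE 0.10, adjusted p = 0.526, edgeR).

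*Ndufa5*, an accessory subunit of the hydrophilic arm, ran from 20.9 to 42.5 CPM (median 28.9) in WT eWAT and from 51.3 to 80.3 (median 61.7) in FANKO eWAT. At a log2 change of 1.08 (SE 0.07, adjusted p = 2.26e-20, edgeR), or 2.12 times, it had the largest rise. *Ndufa11*, the gene with the smallest fall in BAT, came next, at 22.7 to 40.6 CPM in WT and 51.8 to 70.7 in FANKO eWAT (log2 1.01, SE 0.07, adjusted p = 1.19e-18, edgeR). Neither gene overlapped between the genotypes.

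The core subunits rose by 0.50 to 0.88 on the log2 scale in FANKO eWAT. *Ndufv2* was at 60.6 to 106 CPM in WT and 125 to 174 in FANKO eWAT (0.88, SE 0.07), and *Ndufs8* at 58.9 to 79.2 in FANKO eWAT (0.85, SE 0.08). *Ndufv1* was at 199 to 276 CPM in FANKO eWAT (0.82, SE 0.08), against 102 to 178 in WT. *Ndufs7* was at 32.8 to 55.5 in WT and 54.0 to 100.5 in FANKO eWAT (0.80, SE 0.07), with overlapping ranges.

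*Ndufs1* was at 101 to 186 CPM in WT and 206 to 296 in FANKO eWAT (0.77, SE 0.07), with no overlap. The smallest rise of a core subunit was that of *Ndufs3*, at 37.1 to 61.6 CPM in WT and 60.1 to 83.2 in FANKO eWAT (0.50, SE 0.06), with overlapping ranges. *Ndufa4* was at 120 to 210 CPM in WT and 174 to 260 in FANKO eWAT (0.50, SE 0.07).

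Macrophage markers in eWAT (3 of 10 higher, 2 lower) overlapped between the genotypes, at 685 to 992 CPM in WT and 639 to 1150 in FANKO mice, and with their score as a covariate the same number of the 37 genes, 35, was higher. Stromal markers were lower in FANKO eWAT (5 of 5), at 2148 to 3801 CPM in WT and 1309 to 1924 in FANKO mice, and their part in the result was not tested. Adipocyte markers (2 of 8 higher, 4 lower) overlapped, at 12050 to 20540 CPM (median 15740) in WT and 13060 to 19230 (median 16380) in FANKO eWAT. Skeletal muscle markers had a median of 20.7 CPM in WT eWAT (11.9 to 87.2) and 54.8 in FANKO eWAT (28.2 to 117), 2.65 times as high. With the muscle score as a covariate 35 of the 37 genes were higher in FANKO eWAT (median 0.74) and 37 lower in FANKO BAT (median -1.42). The median of all genes in that model was -0.02 in eWAT and 0.0 in BAT, and it was -0.03 in eWAT with the macrophage score. Shares of all genes called were not taken in these models. Brown adipocyte markers summed to 56.0 to 92.0 CPM in WT and 83.7 to 140 in FANKO eWAT. Of the 9, 3 were higher (*Cidea*, *Cox7a1* and *Cox8b*) and 2 lower (*Dio2* and *Ebf2*). *Cox7a1* and *Cox8b* are also counted, in both depots, among the complex IV genes described below. The median of *Ucp1*, which did not pass the test, was 0.213 CPM in WT and 0.825 in FANKO eWAT.

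The difference of the genotype effects between the depots was tested directly. It was negative for all 37 genes (FDR below 0.01, where 32.1% of all genes tested were lower and 32.2% higher), with a median of -2.09 on the log2 scale. Scaled by library size alone, the median was -1.27 and 36 genes passed. The smallest p values were those of *Ndufb5*, a membrane arm subunit (-2.30, SE 0.09, adjusted p = 1.10e-29, edgeR), *Ndufs1* (-2.5, SE 0.10, adjusted p = 1.18e-29, edgeR) and *Ndufc2*, also of the membrane arm (-2.04, SE 0.08, adjusted p = 1.35e-29, edgeR). *Ndufb5* fell from 353 to 469 CPM in WT BAT to 88.3 to 178 in FANKO BAT, and rose from 44.3 to 73.3 in WT eWAT to 85.2 to 109 in FANKO eWAT. *Ndufc2* was at 216 to 302 CPM in WT and 66.2 to 130 in FANKO BAT, and at 42.6 to 67.2 in WT and 71.6 to 90.4 in FANKO eWAT. Both genes were thus separated between the genotypes in either depot.

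The same test compares the depot difference of FANKO mice with that of WT mice, and it was smaller in FANKO mice for the 36 genes other than *Ndufa4l2*. BAT was higher than eWAT for 29 of the 37 genes (28.1% of all genes tested were higher) and lower for 1, *Ndufa4l2* (31.6% of all were lower), with a median log2 fold change of 0.34. For none of the 37 did the ranges of FANKO BAT and FANKO eWAT separate, against 5.18% of all genes with BAT above eWAT and 9.01% with BAT below. *Ndufs6*, a zinc-binding accessory subunit of the hydrophilic arm, differed most (0.76, SE 0.07, adjusted p = 2.05e-14, edgeR), at 45.0 to 98.4 CPM in BAT and 36.4 to 50.7 in eWAT, and *Ndufs8* came next (0.68, SE 0.07, adjusted p = 4.83e-12, edgeR). *Ndufa2*, *Ndufa7*, *Ndufa13*, *Ndufb7*, *Ndufb9*, *Ndufb10* and *Ndufs5* did not pass the test, with log2 values from -0.11 to 0.18. Without the 7 BAT libraries rich in muscle markers 31 genes were higher, and without the 3 eWAT libraries 28.

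**Figure D4:**
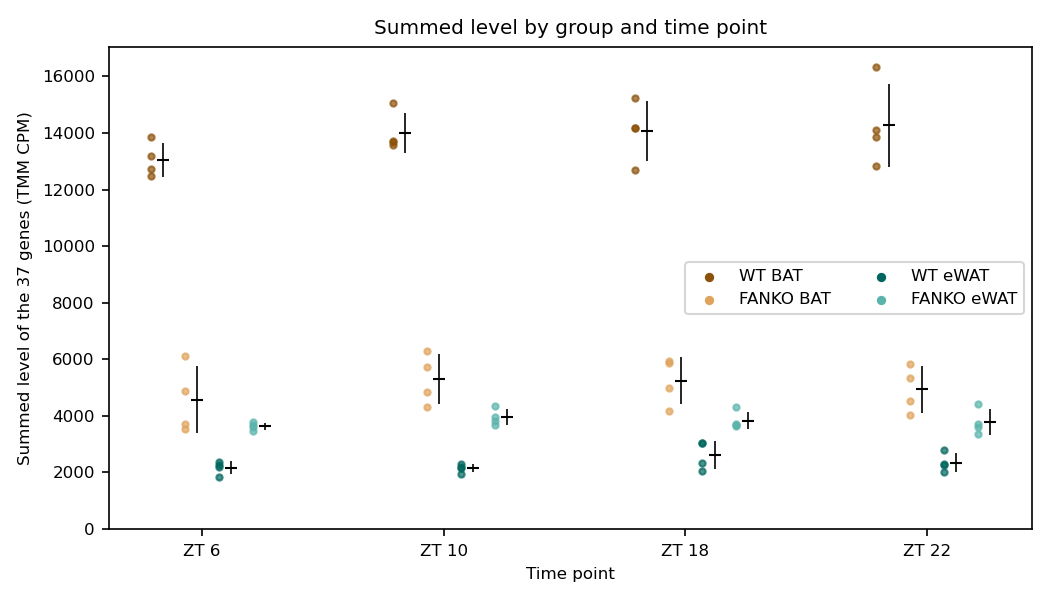
Summed level of the 37 genes (vertical axis, TMM CPM from 0) at each time point (horizontal axis) in the 4 combinations of depot and genotype, with 1 point per sample and the mean ± SD (n = 4) in black beside it. WT BAT lies above all other groups at each time point, and FANKO eWAT lies above WT eWAT.

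The genotype effect was present at each time point. In BAT all 37 genes had 4 FANKO samples below 4 WT samples at ZT 6, ZT 10, ZT 18 and ZT 22, where 24.9%, 25.7%, 20.9% and 23.8% of all genes did so, and 25.4%, 26.7%, 20.8% and 24.8% had FANKO above WT. The median log2 ratio was -1.48, -1.33, -1.33 and -1.48. In eWAT 34, 36, 31 and 31 genes had all FANKO samples above all WT samples at these time points, against 21.6%, 22.2%, 13.5% and 16.4% of all genes. The opposite order held for none of the 37 and for 14.1%, 15.7%, 8.19% and 12.9% of all genes, and the median ratios were 0.80, 0.91, 0.58 and 0.69. The sum of the 37 genes in WT eWAT was 2169 ± 237 CPM (SD, n = 4) at ZT 6 and 2619 ± 504 at ZT 18.

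Rhythm over 24 h was tested in each combination of depot and genotype, since *Nampt* deletion was studied here for its effect on daily rhythms. None of the 37 genes was rhythmic at an FDR of 0.01 in WT BAT, FANKO BAT or WT eWAT, where 13.9%, 2.84% and 9.38% of all genes were (edgeR). DESeq2 and limma-voom also called 0 of them in each. An unadjusted p below 0.05 was found for 1, 3 and 10 of the 37 genes, and for 32%, 21.5% and 29.6% of all genes. In FANKO eWAT 1 gene was rhythmic, *Ndufa4l2*, against 6.77% of all genes, and DESeq2 and limma-voom also called 1. It was also the 1 gene of the 37 there with an unadjusted p below 0.05, where 24.5% of all genes had one. The rhythms of the genotypes differed for 0 of the 37 in BAT (2.76% of all genes) and for 0 in eWAT (1.15% of all), and DESeq2 and limma-voom called none either. At an unadjusted p below 0.05 the numbers were 0 in BAT, against 19.2% of all genes, and 2 in eWAT, against 15.6%.

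The fitted difference between peak and trough was set beside that of all genes tested. It cannot fall below 0, so noise raises it, and more so in genes with few counts. The 37 genes were not matched by level to the others, so a smaller median need not mean a flatter rhythm. In WT BAT its median over the 37 genes was 0.11 on the log2 scale, where the median of all genes was 0.45. *Ndufa4l2* had 0.53 (adjusted p = 0.151, edgeR) and *Ndufa10*, a membrane arm subunit, 0.21 (adjusted p = 0.642, edgeR). In FANKO BAT the median was 0.32, near the 0.37 of all genes, and the smallest p values were those of *Ndufc2* (0.49, adjusted p = 0.13, edgeR), *Ndufb5* (0.49, adjusted p = 0.158, edgeR) and *Ndufb10*, of the membrane arm (0.39, adjusted p = 0.216, edgeR).

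In WT eWAT the median was 0.29, against 0.38 for all genes, and *Ndufc2* (0.34, adjusted p = 0.0668, edgeR) and *Ndufs7* (0.36, adjusted p = 0.0738, edgeR) came nearest to the threshold, with fitted peaks at ZT 17.4 and ZT 17.7. In FANKO eWAT the median was 0.16, against 0.38 for all genes, and after *Ndufa4l2* came *Ndufb3* (0.44, adjusted p = 0.225, edgeR) and *Ndufs5*, of the membrane arm (0.39, adjusted p = 0.34, edgeR). For the difference of rhythms the smallest p values were those of *Ndufc2*, *Ndufb5* and *Ndufs7* in BAT (adjusted p = 0.607, 0.614 and 0.615, edgeR) and of *Ndufa4l2*, *Ndufb3* and *Ndufc2* in eWAT (adjusted p = 0.194, 0.287 and 0.426, edgeR).

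*Ndufa4l2* (chr10:127514967-127517154, plus strand, GRCm38), a paralog of *Ndufa4* known to be induced by hypoxia, differed from the other 36 genes in level and in pattern. In FANKO eWAT it rose from 3.47 ± 0.536 CPM (SD, n = 4) at ZT 6 and 2.98 ± 0.820 at ZT 10 to 5.72 ± 0.577 at ZT 18, with 5.15 ± 1.22 at ZT 22 and all samples of ZT 18 above all of ZT 6 and ZT 10. The fitted difference between peak and trough was 0.87 on the log2 scale with a peak at ZT 20.1 (adjusted p = 3.95e-04, edgeR), and without replicate 3 it was not called. In BAT it was lower in FANKO mice, at 1.67 to 3.02 CPM against 3.11 to 6.75 in WT (log2 -0.84, SE 0.10, adjusted p = 1.75e-10, edgeR). It shares 32 exonic bases with *Shmt2* on the opposite strand. Scaled by library size alone, its change in BAT was -0.26 and not called, and that in eWAT was -0.33 and called.

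**Figure D5:**
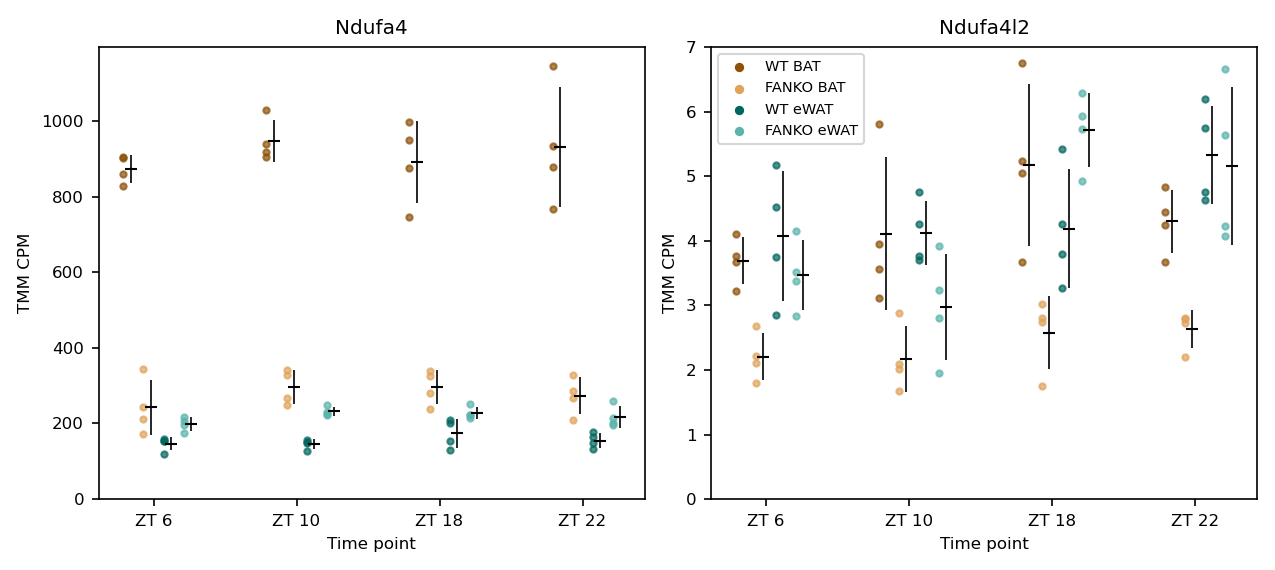
Level of *Ndufa4* (left) and of *Ndufa4l2* (right), each on its own vertical axis from 0 (TMM CPM), at each time point (horizontal axis), with 1 point per sample and the mean ± SD (n = 4) in black. *Ndufa4* in WT BAT lies between 748 and 1145 CPM, above all other groups, whereas *Ndufa4l2* lies between 1.67 and 6.75 CPM in all groups, and FANKO BAT lies below WT BAT.

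The subunits outside the symbol pattern and the rest of the respiratory chain were described beside these genes. Of the 7 complex I genes of the mitochondrial genome 6 were tested, and 5 were lower in FANKO BAT and 5 higher in FANKO eWAT. *mt-Nd1*, a core subunit of the membrane arm, had a median of 7735 CPM in WT and 3354 in FANKO BAT, and of 1033 in WT and 2013 in FANKO eWAT (log2 -1.29 in BAT, SE 0.11, and 0.82 in eWAT, SE 0.11). *mt-Nd3* did not pass in either depot, and *mt-Nd4l*, with a median of 0 CPM in each depot and genotype, was not tested. *Ndufab1*, the acyl carrier protein in both arms, changed by -1.26 in BAT (SE 0.07) and 0.54 in eWAT (SE 0.07), and *Ndufb1-ps* by -1.25 (SE 0.08) and 0.47 (SE 0.08).

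Of 15 assembly factors of complex I, all 15 were lower in FANKO BAT (median log2 fold change -1.02), and 12 were higher and 1 lower in FANKO eWAT (median 0.42). In BAT 4 of 4 genes of complex II (median -1.43), 9 of 9 of complex III (-1.50), 15 of 16 tested of complex IV (-1.47) and 14 of 16 of complex V (-1.2) were lower. The gene of complex V that was higher was *Atp5g1*, which encodes a copy of the c subunit (log2 1.74). In eWAT 4 of 4, 9 of 9, 14 of 16 and 16 of 16 were higher, with medians of 0.74, 0.91, 0.88 and 0.67. The median over all genes tested was 0.00 in BAT and -0.02 in eWAT.

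Of 6 regulators known to act on genes of the respiratory chain, 4 were lower in FANKO BAT. *Ppargc1b*, a coactivator of mitochondrial genes, had a median of 104 CPM in WT and 24.3 in FANKO BAT (log2 -2.07), and *Gabpa*, *Tfam* and *Esrra* changed by -0.85, -0.80 and -0.69. *Ppargc1a* did not pass (log2 -0.25, adjusted p = 0.104, edgeR), and *Nrf1* was higher by 0.21. In eWAT 5 of the 6 were higher, with the largest log2 change for *Esrra* at 0.83, and *Ppargc1a* did not pass (-0.40, adjusted p = 0.0389, edgeR).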

How the data were processed

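RNA of BAT and eWAT from WT and FANKO mice was measured in 64 samples, grouped by the depot, genotype and time point in their labels. The authors depleted ribosomal RNA, made stranded paired-end libraries, aligned reads with STAR 2.5.3a to GRCm38.p5 and deposited whole-number read counts per gene from featureCounts 1.5.3 (per the labels), not normalized and not pooled. The counting options for strand and multi-mapped reads are not given in the sources used here, so reads shared with overlapping or antisense genes cannot be told apart. Total counts per sample (6117343 to 30544847) set the precision.

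Symbols, coordinates and overlaps came from GENCODE M21 on GRCm38, which named 52489 of 52636 identifiers. Genes were kept by filterByExpr on the 16 groups (minimum count 10, minimum total 15), which left 20249 genes and removed 32387. With edgeR 4.0.16 (R 4.3.3) a single quasi-likelihood model with TMM factors took in every sample. It gave each combination of depot and genotype its own mean and its own 24 h cosine and sine terms, 12 coefficients in all. P values were adjusted by Benjamini-Hochberg over all genes tested, with an FDR of 0.01 as the threshold, after the study. The labels do not say whether replicates were separate animals, or whether depots came from the same ones, so p values measure the spread between these samples. The fits were tested on simulated counts.

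The 37 genes and all lists were chosen with earlier results of these data known, and no list test was run. Values are given for the core subunits, for the 2 largest changes in each direction per comparison of levels, for the 3 smallest p values of each other test, and for *Ndufa4* and *Ndufa4l2*. The values of 1 gene are not reported here. Alternatives were DESeq2 1.42.0, limma-voom 3.58.1, other scalings and filters, covariates, blocks, and samples left out. Leaving out 7 BAT or 3 eWAT libraries was chosen after seeing the data.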

Additional observations from a re-analysis of the deposited data

Results flagged for a closer look

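The genotype effect differed between the depots, by the test of the difference itself, for all 37 genes. Among those named by rule, the difference (BAT minus eWAT, log2) was -2.54 for *Ndufv1*, -2.5 for *Ndufs1*, -2.37 for *Ndufa1*, -2.30 for *Ndufb5* and *Ndufs8*, -2.28 for *Ndufv2*, -2.25 for *Ndufa5*, -2.22 for *Ndufa4*, -2.21 for *Ndufs7*, -2.20 for *Ndufa10*, -2.19 for *Ndufs5*, -2.04 for *Ndufc2*, -2.01 for *Ndufs6*, -1.98 for *Ndufs3*, -1.97 for *Ndufb10*, -1.80 for *Ndufa11*, -1.78 for *Ndufb3* and -0.77 for *Ndufa4l2*.

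In 3 of 64 sets of 4 samples examined, 1 sample stood far from the rest by Dixon's 95% criterion, where chance gives about 1 in 20. The summed level of the 37 genes was 15070 CPM in 1 sample of WT BAT at ZT 10 (nearest other sample 13710) and 4310 CPM in 1 sample of FANKO eWAT at ZT 18 (nearest 3730). *Ndufa4l2* was at 2.20 CPM in 1 sample of FANKO BAT at ZT 22 (nearest 2.73).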

How the results depend on the processing

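Of the 20 alternatives planned and 2 added, scaling and the macrophage covariate mattered most. With the macrophage marker score as a covariate 3 of the 37 genes were lower in FANKO BAT, and the named genes whose call was lost lay between -0.99 (*Ndufa4*) and -0.02 (*Ndufa11*). Standard errors were larger in that model, at 0.27 for *Ndufs1* against 0.07. Shares of all genes called were taken in the main fit only, so counts under the alternatives have no background beside them. Scaling by library size alone moved the median log2 fold change of all genes to 0.58 in BAT and -0.27 in eWAT between genotypes, and that of the 37 genes to -0.82 and 0.50. Relative to all genes it was -1.41 and 0.77, and -1.40 and 0.77 with RLE factors. With library size alone 1 gene, *Ndufa4l2*, became lower in FANKO eWAT and in WT BAT against WT eWAT. Its difference of genotype effects between depots was then 0.07 and not called. The count of rhythmic genes in FANKO eWAT ranged from 0 to 1 when each replicate was left out, with 0 without replicate 3. In FANKO mice BAT was higher for 25 to 31 genes over all alternatives, and *Ndufs7* lost its call without replicate 1, 2 or 4. Of 32 pairs of BAT and eWAT samples with equal replicate number, 10 had a correlation of deviations above 0.1 (median 0.05, highest 0.31). Pairs of WT and FANKO samples, which cannot share an animal, gave 6 of 32 and the same median, so the measure cannot tell whether depots were paired. A limma-voom fit took samples of equal genotype, time point and replicate number as a random block. Its median log2 fold changes were 2.46 and 0.34 between depots (WT and FANKO) and -2.12 for the difference of genotype effects. With replicate number as a term common to all samples, which does not model such pairs, 37 genes were lower in FANKO BAT and 35 higher in FANKO eWAT. Genotypes separated at ZT 22 in BAT for 27 of 37 genes with library size alone and for 37 with the mitochondrial genome removed, and at ZT 18 in eWAT for 23 and 29. The share of all genes that separated was not taken under these scalings, and the shares under the main scaling do not carry over. Depth limits *Ndufa4l2*, at a few CPM, most.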
